A study of Homo sapiens with 36 samples.

Results

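The 7 genes described here encode transcription factors that set or oppose the luminal identity of prostate cells: FOXA1, HOXB13, GATA2, GRHL2, SPDEF, EHF and NR3C1. The rule that picks them lists gene names and uses no measured value, though the list was drawn up with earlier results of these data known. Each was found by its Ensembl identifier among the 29872 genes of the deposited table of normalised counts. The 36 libraries came from LNCaP, a human prostate cancer line in long use whose growth responds to androgen. Cells received vehicle, AU2-94 at 1 or 2 µM, atirmociclib at 1 or 2 µM, or ribociclib at 2 µM, and RNA was taken after 24 h or 72 h, giving 12 groups of 3 biological replicates. AU2-94 and atirmociclib were described by the study as selective CDK4 inhibitors and ribociclib as an inhibitor of both CDK4 and CDK6, the kinases that drive cells from G1 into S phase. The labels give the vehicle groups a dose of 2 µM, for which no agent is named. Wells meant for 72 h were seeded with fewer cells than wells meant for 24 h, so time and cell density varied together. The comparisons ask how far the expression of these factors moves when CDK4 is inhibited, whether the compounds differ at a matched dose and time, and whether the effect changes between 24 h and 72 h.

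In the luminal epithelium of the prostate, lineage is held by a small set of DNA-binding proteins that act with steroid hormone receptors. FOXA1 is a forkhead pioneer factor that opens chromatin, GATA2 is a zinc-finger factor that binds many of the same enhancers, and HOXB13 is the homeodomain protein of the posterior prostate lineage. GRHL2 maintains epithelial junction genes, SPDEF and EHF are ETS factors of secretory and glandular epithelium, and NR3C1 is the glucocorticoid receptor, whose binding sites overlap with those of the receptor for androgens.

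In GRCh38 with GENCODE release 44, FOXA1 (ENSG00000129514) lies on the minus strand at chr14:37589552-37596059 and GATA2 (ENSG00000179348) on the minus strand at chr3:128479427-128493201. HOXB13 (ENSG00000159184) lies on the minus strand at chr17:48724763-48728750. SPDEF (ENSG00000124664) lies on the minus strand at chr6:34537802-34556333, EHF (ENSG00000135373) on the plus strand at chr11:34621093-34663288 and NR3C1 (ENSG00000113580) on the minus strand at chr5:143277931-143435512. Exons of 3 of these genes share bases with a gene on the opposite strand: 16 bases of FOXA1 with TTC6, 78 bases of GATA2 with GATA2-AS1, and 50 bases of GRHL2 with ENSG00000254024. The strand setting of the authors' counting is not given in the sources used here, so reads from these shared bases cannot be told apart; they make up 0.36%, 1.59% and 0.83% of the exon bases of FOXA1, GATA2 and GRHL2.

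RefSeq promoters of the build GRCh38.p14 matched 5 of the 7 genes. One stretch upstream of a start site is shown for each of the 4 factors that are expressed and have an entry, because the families of these same factors bind some of the motifs searched. GATA2 and EHF each have another window, which held CCAAT and none of the other motifs; for EHF the window with more matches was taken, after the matches were seen, and for GATA2 the one at the start of the annotated gene. Only bases outside the GENCODE exons of the gene itself are printed, 5′ to 3′ on the gene's strand, with motif matches in capitals. Exons of other genes were not checked.
FOXA1, minus strand, chr14:37595349-37595499: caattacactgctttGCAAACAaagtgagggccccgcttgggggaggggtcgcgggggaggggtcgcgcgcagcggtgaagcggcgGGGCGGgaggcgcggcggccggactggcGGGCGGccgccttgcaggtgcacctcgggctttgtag
GATA2, minus strand, chr3:128493202-128493451: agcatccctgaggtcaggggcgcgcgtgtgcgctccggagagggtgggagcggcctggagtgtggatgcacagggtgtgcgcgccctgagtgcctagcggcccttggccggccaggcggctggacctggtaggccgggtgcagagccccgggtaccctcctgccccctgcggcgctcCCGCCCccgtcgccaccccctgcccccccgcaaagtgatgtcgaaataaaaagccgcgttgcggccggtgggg
SPDEF, minus strand, chr6:34556334-34556579: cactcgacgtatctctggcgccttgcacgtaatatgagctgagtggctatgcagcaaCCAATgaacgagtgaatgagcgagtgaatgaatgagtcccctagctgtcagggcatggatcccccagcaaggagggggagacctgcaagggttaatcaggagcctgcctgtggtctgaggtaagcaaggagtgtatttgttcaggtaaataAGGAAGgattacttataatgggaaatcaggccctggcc
EHF, plus strand, chr11:34632316-34632463: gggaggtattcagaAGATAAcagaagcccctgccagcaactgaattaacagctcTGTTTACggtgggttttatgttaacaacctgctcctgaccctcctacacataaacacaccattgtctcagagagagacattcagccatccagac
Both strands were searched for 11 motifs: the forkhead letters TGTTTAC plus the variant TGTTTGC, the letters AGATAA plus the variant TGATAA for factors like GATA2, the letters AACCGG for grainyhead factors, AGGAAG for ETS factors, TTTATTG for HOX factors, AGAACA for steroid receptors, the CCAAT box, the GC box GGGCGG, plus the TATA box TATAAA. No motif of the 11 contains another. The FOXA1 window held TGTTTGC at 1 place, read on the opposite strand, which 2.01% of the 35116 promoters hold within a window of the same length, and GGGCGG at 2 places. The EHF window held TGTTTAC, found in 1.79% of windows of that length, and AGATAA, found in 5.98%. The SPDEF window held AGGAAG, found in 28.2%, as well as CCAAT, found in 31.8%, and the GATA2 window held GGGCGG, found in 42.6%. These matches describe the letters of the windows and are not evidence of binding.

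The deposited values summed to between 20675156 and 22692555 normalised counts per library, and 19708 to 21405 genes were above 0 in a library. The luminal prostate markers KRT8, KRT18, CDH1, EPCAM, FOLH1 and KLK3 were all expressed, with a summed level of 63039 to 111484 normalised counts per library. No vehicle library exceeded 68665 in this sum, whereas every treated library reached at least 81188. The most abundant markers weigh most in the sum, KLK3 with a mean of 36938 normalised counts and FOLH1 with 22509. KLK3 is also among the androgen response genes listed below. Taken per gene, the median log2 fold change of the 6 markers lay between 0.26 and 0.31 in the 24 h treatments. In the 72 h treatments it was lowest under AU2-94 2 µM, at 0.14, and highest under atirmociclib 2 µM, at 0.49. Of these 6 markers, 5 were called higher than vehicle in each treatment after 24 h, against at most 18.6% of all genes. After 72 h, 3 to 4 were called higher, against at most 20.9% of all genes, and no treatment had more than 1 called lower. The summed level was 4.73 to 88.6 for 4 basal markers, 0 to 7.09 for 2 leukocyte markers, and 4 of 6 neuroendocrine markers were at or under the floor of 3 normalised counts in every library. It was 345 to 730 for 5 stromal markers and 185 to 713 for 2 endothelial markers, led by COL1A1 and VWF. KRT14, a keratin of basal cells, was higher in all 10 treated groups than in vehicle, by 1.36 to 2.26 on the log2 scale, from a low level. KRT5 and TP63, the defining basal markers, did not reach the level needed for testing. ACTA2, a smooth muscle actin, was higher in 8 of the 10 and VWF in the 5 at 72 h, while COL1A1 was lower in 3 at 24 h. The part of these markers in the results was not tested.

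Per kb of merged exon, HOXB13 was the most abundant of the 7 factors in LNCaP cells and NR3C1 was close to absent. The mean over the 36 libraries was 2799 normalised counts per kb for HOXB13, 2282 for FOXA1, 1924 for EHF, 1468 for SPDEF, 1247 for GATA2, 718 for GRHL2 and 0.494 for NR3C1. Among the 15257 genes of any type with a mean of at least 10 normalised counts, ranked in this way, HOXB13 was number 186. FOXA1 was number 243, EHF 291, SPDEF 406, GATA2 498 and GRHL2 1012. Each factor lay above the next one in this order in 36 of 36 libraries, except that SPDEF lay above GATA2 in 34 of 36. The order rests on the merged exon length, and which transcripts were expressed was not resolved. By normalised count alone the means were 12729 for EHF, 10074 for FOXA1 and 8506 for HOXB13. Since the libraries were made from bulk RNA, fewer cells expressing a gene and less RNA per cell cannot be told apart.

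**Figure D1:**
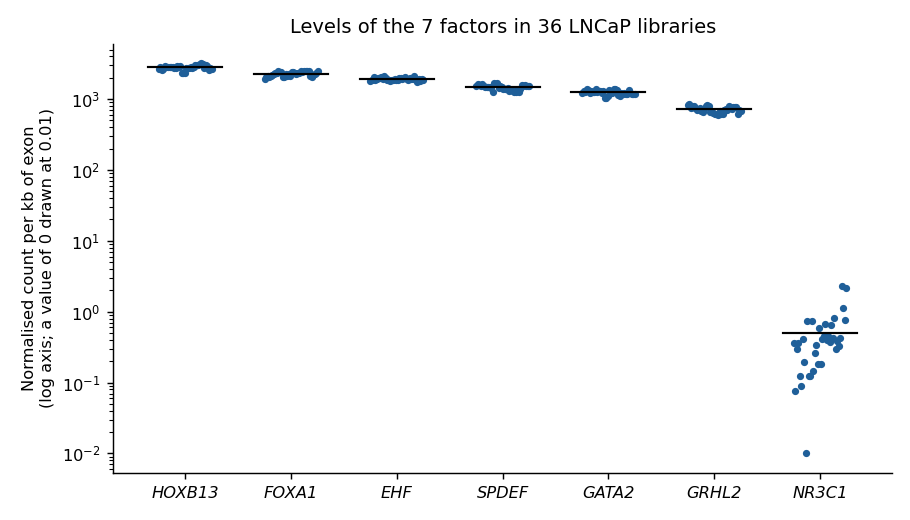
Normalised counts per kb of merged exon (log axis) of the 7 factors, with a point for each of the 36 libraries and a black line at the mean. HOXB13, at a mean of 2799, is the highest and GRHL2, at 718, the lowest of the 6 expressed factors, while NR3C1 sits at a mean of 0.494.

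The 6 expressed factors varied little between groups. The highest group mean divided by the lowest was 1.09 for EHF, 1.22 for FOXA1, 1.29 for GATA2, 1.31 for SPDEF, 1.33 for GRHL2 and 1.34 for HOXB13. The median coefficient of variation among 3 replicates ranged from 1.60% for HOXB13 to 3.61% for GRHL2. This spread leaves out the choice of scaling. Quantile normalisation shifted the median of all genes by 0.1134 on the log2 scale for atirmociclib 2 µM against vehicle at 24 h. For NR3C1 the group means ran from 1.74 to 12.3 normalised counts with a median coefficient of variation of 58.8%.

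**Figure D2:**
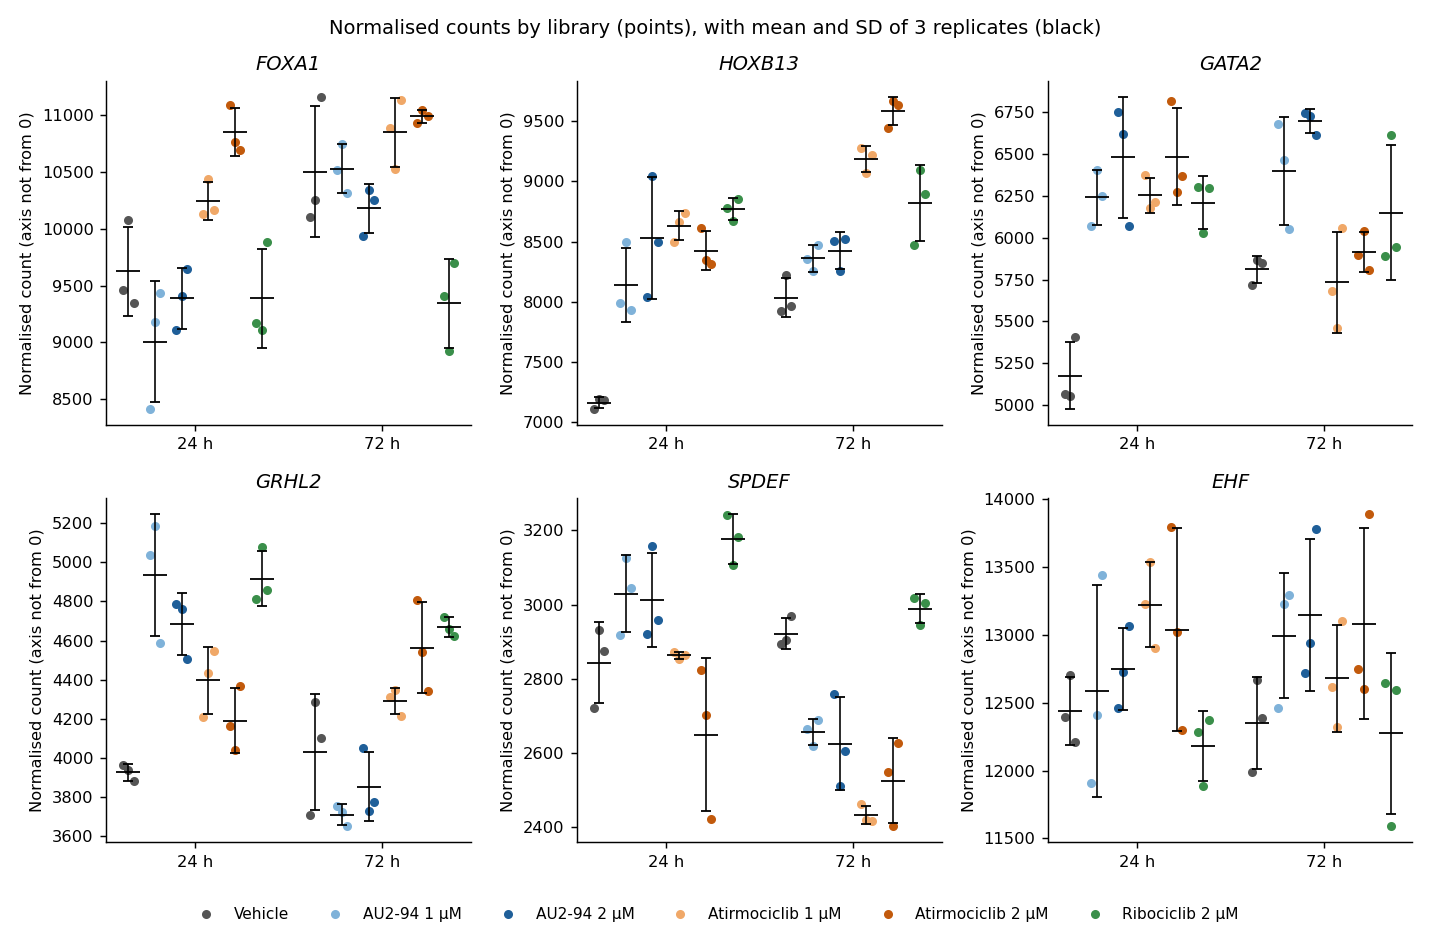
Normalised counts of the 6 expressed factors (vertical axes do not start at 0) in each library, by treatment and time point, with the mean and SD of 3 replicates in black. At 24 h every treated library lies above every vehicle library for HOXB13 and GATA2, and at 72 h the SPDEF libraries of AU2-94 and atirmociclib lie below vehicle.

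CDK4 inhibition was first compared with the vehicle of the same time point. At 24 h, GATA2 and HOXB13 rose in all 5 treatments, by 20.0% to 25.3% and 13.6% to 22.4%, and GRHL2 rose in 4 of 5. At 72 h the picture was mixed, with SPDEF lower in 4 of 5 treatments, GRHL2 called higher under ribociclib and atirmociclib 2 µM, and HOXB13 called higher under atirmociclib and ribociclib. A gene was called when its limma p-value, adjusted over all genes tested, was at most 0.05. No call reached an absolute log2 fold change of 1. At 24 h, 6 of the 7 factors could be tested, and 3 were called higher under each dose of AU2-94 and of atirmociclib, and 4 under ribociclib. Of all 16137 genes tested, 14.3%, 16%, 16.6%, 18.6% and 16.8% were called higher under AU2-94 1 and 2 µM, atirmociclib 1 and 2 µM and ribociclib. No factor was called lower at 24 h, where 13.5%, 14.9%, 15.4%, 16.2% and 15.2% of all genes were. At 72 h, all 7 were tested, and 1, 1, 1, 2 and 2 were called higher in that order, against 15.4%, 14.2%, 20%, 20.9% and 15.5% of 16341 genes. In each of the 5 treatments 1 factor was called lower at 72 h, against 17%, 15.3%, 19.8%, 19.6% and 15.4% of genes, so that 1 of 7 factors called is close to these shares. The 5 comparisons of a time point share their vehicle libraries.

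**Figure D3:**
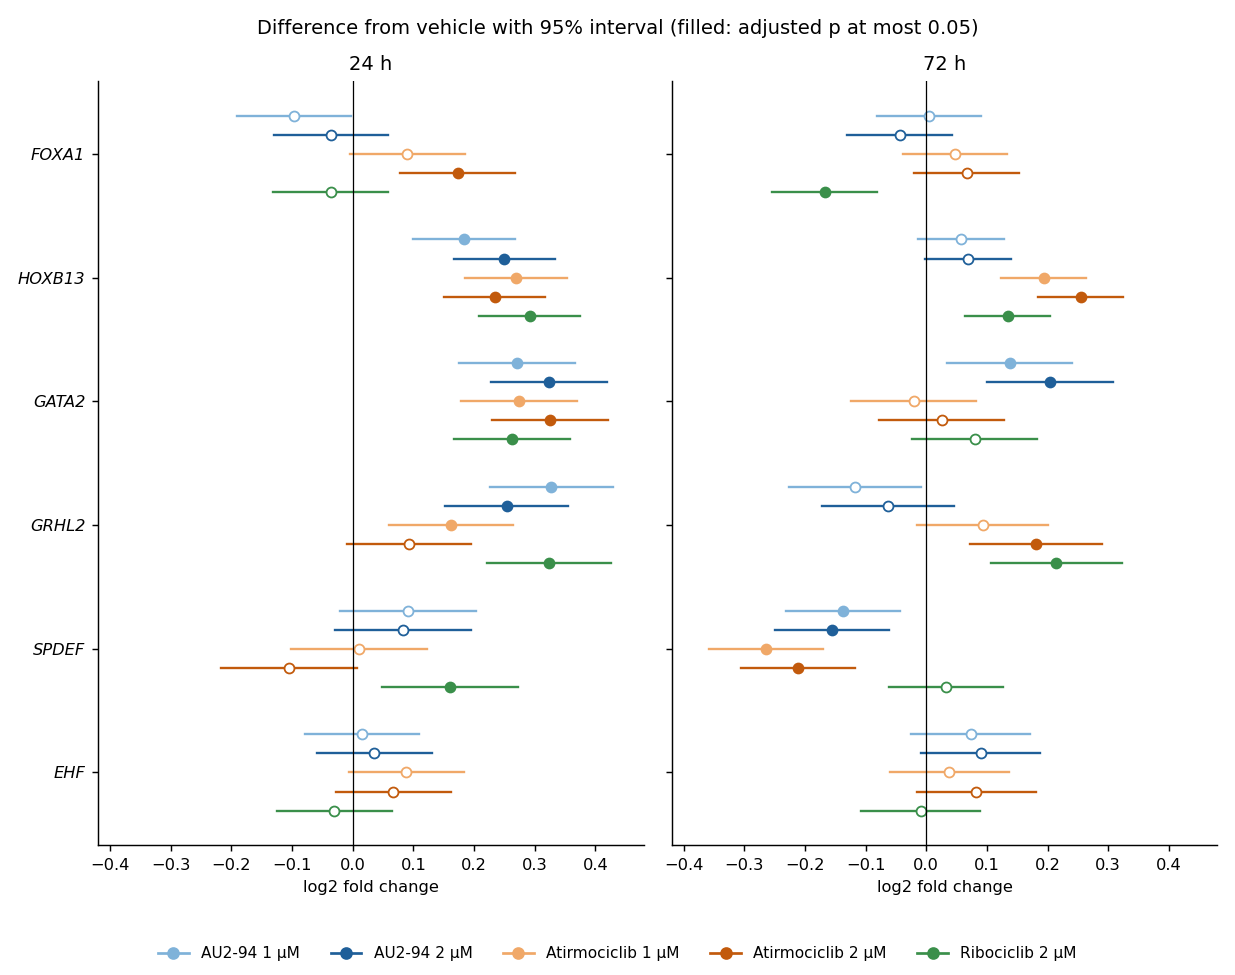
Log2 fold change against vehicle of the 6 expressed factors at 24 h and 72 h, with the 95% interval from limma; filled points were called. GATA2 and HOXB13 lie to the right of 0 in all 5 treatments at 24 h, while SPDEF lies to the left in 4 of 5 at 72 h; the FOXA1 point for atirmociclib 2 µM at 24 h turned to -0.017 after quantile normalisation.

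FOXA1, the pioneer factor, was called in 2 of 10 comparisons and in opposite directions. At 24 h the vehicle libraries held 9459, 10073 and 9344 normalised counts, and the atirmociclib 2 µM libraries held 11088, 10766 and 10689. All 3 of these lay above the highest vehicle library, and FOXA1 was higher by 0.17 on the log2 scale (SE 0.0449, adjusted p = 0.00571), or 1.13-fold, though the sign turned to -0.017 with quantile normalisation. With each library scaled to equal totals the difference was 0.097 with an adjusted p of 0.0935. At 1 µM atirmociclib the libraries held 10130, 10434 and 10161, again above vehicle, with a log2 difference of 0.09 that was not called (adjusted p = 0.14) and was -0.077 with quantile normalisation. The AU2-94 libraries overlapped with vehicle at 24 h, at 8414 to 9435 normalised counts for 1 µM and 9112 to 9644 for 2 µM, and so did those of ribociclib, at 9105 to 9885. These 3 groups gave log2 differences of -0.10, -0.04 and -0.04 that were not called, but quantile normalisation gave -0.22, -0.17 and -0.18, all called (adjusted p = 0.00103, 0.00652 and 0.00301), having shifted the median of all genes by up to 0.1134 at 24 h. After 72 h, vehicle held 10099, 10248 and 11161 and ribociclib held 9412, 8927 and 9699. Every ribociclib library was below every vehicle library, and FOXA1 fell by 0.17 on the log2 scale (SE 0.0409, adjusted p = 0.00412). In a fit of these 2 groups alone the adjusted p was 0.0519. AU2-94 and atirmociclib at 72 h gave log2 differences of -0.04 to 0.07, none called. Without vehicle replicate 3 the difference for atirmociclib 2 µM at 72 h was 0.11 with an adjusted p of 0.0391.

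GATA2, which binds with FOXA1 at many enhancers, was the factor with the largest rise shared by all treatments at 24 h. Vehicle held 5068, 5051 and 5405 normalised counts. AU2-94 held 6072, 6402 and 6250 at 1 µM and 6754, 6618 and 6070 at 2 µM. Atirmociclib held 6372, 6176 and 6212 at 1 µM and 6815, 6270 and 6369 at 2 µM, and ribociclib held 6305, 6025 and 6296. No treated library overlapped with vehicle, and the log2 fold changes were 0.27, 0.32, 0.27, 0.33 and 0.26 (SE 0.0455), with adjusted p from 1.94e-05 to 0.000205. After 72 h, vehicle had risen to 5720, 5868 and 5846, and only the AU2-94 groups were called above it. They held 6679, 6466 and 6049 at 1 µM, a log2 difference of 0.14 (SE 0.0492, adjusted p = 0.039), and 6747, 6726 and 6612 at 2 µM, a difference of 0.20 (adjusted p = 0.00407). The call at 1 µM was lost without any one of 5 of the 6 libraries, AU2-94 replicates 1 and 2 and all 3 vehicle replicates (log2 0.11 to 0.14, adjusted p = 0.067 to 0.161). The 72 h libraries of atirmociclib lay at 5459 to 6056 for 1 µM and 5806 to 6042 for 2 µM, overlapping with vehicle, with log2 differences of -0.02 and 0.03. The antisense gene GATA2-AS1 differed from vehicle by 0.11, 0.29, 0.22, 0.38 and 0.14 at 24 h in the same order of treatments, of which 0.29, 0.22 and 0.38 were called. At 72 h it was called lower under AU2-94 at 1 and 2 µM (-0.42 and -0.36) and atirmociclib 1 µM (-0.17), so its differences under AU2-94 had the opposite sign to those of GATA2. The part of the 78 shared bases in these values was not tested.

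HOXB13, the homeodomain factor of the prostate lineage, was called higher in 8 of 10 comparisons, more than any other of the 7 factors. The 24 h vehicle libraries were closely spaced at 7109, 7195 and 7187 normalised counts. AU2-94 held 7988, 8495 and 7933 at 1 µM and 8044, 9048 and 8498 at 2 µM. Atirmociclib held 8497, 8667 and 8736 at 1 µM and 8615, 8348 and 8314 at 2 µM, and ribociclib held 8783, 8673 and 8855. All 15 treated libraries lay above vehicle, with log2 fold changes of 0.18, 0.25, 0.27, 0.23 and 0.29 (SE 0.0397, adjusted p = 1.57e-05 to 0.00188). After 72 h, vehicle held 7920, 8223 and 7963 normalised counts. Atirmociclib held 9274, 9067 and 9217 at 1 µM and 9447, 9668 and 9637 at 2 µM, which gave log2 fold changes of 0.19 and 0.25 (SE 0.0337, adjusted p = 0.000155 and 6.81e-06). Ribociclib held 8470, 9092 and 8897, a difference of 0.13 (adjusted p = 0.00513) that reached an adjusted p of 0.0701 in a fit of these 2 groups alone. The AU2-94 libraries, at 8252 to 8475 for 1 µM and 8253 to 8522 for 2 µM, also lay above vehicle, but their differences of 0.06 and 0.07 were not called (adjusted p = 0.21 and 0.139). Quantile normalisation gave 0.13 and 0.15 and equal totals 0.09 and 0.10, and all 4 of these values were called.

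GRHL2, the grainyhead factor of epithelial cells, was higher under AU2-94 at 24 h and not at 72 h. The gene (ENSG00000083307) lies on the plus strand at chr8:101492439-101669726. At 24 h vehicle held 3963, 3940 and 3879 normalised counts. AU2-94 held 5037, 5183 and 4585 at 1 µM and 4786, 4762 and 4504 at 2 µM, ribociclib held 4813, 5077 and 4859, and atirmociclib held 4210, 4434 and 4546 at 1 µM and 4161, 4041 and 4368 at 2 µM. Every treated library was above vehicle. The log2 fold changes were 0.33 and 0.25 for AU2-94, 0.32 for ribociclib (SE 0.0484, adjusted p = 4.59e-05 to 0.000571) and 0.16 for atirmociclib 1 µM (adjusted p = 0.0151), while atirmociclib 2 µM, at 0.09, was not called (adjusted p = 0.152). The call for atirmociclib 1 µM was lost with quantile normalisation (0.13, adjusted p = 0.0537), with equal totals (0.10, adjusted p = 0.13) and without its replicate 3 (0.14, adjusted p = 0.068). At 72 h the vehicle libraries were more widely spread, at 3706, 4286 and 4100 normalised counts. Ribociclib held 4722, 4661 and 4623, a difference of 0.21 (SE 0.0517, adjusted p = 0.00375), and atirmociclib 2 µM held 4809, 4539 and 4343, a difference of 0.18 (adjusted p = 0.0091). The latter was lost without atirmociclib replicate 1 or vehicle replicate 1 (log2 0.12 to 0.14, adjusted p = 0.0552 and 0.0677) and with equal totals (0.10, adjusted p = 0.113). AU2-94 held 3756, 3721 and 3649 at 1 µM and 4053, 3728 and 3776 at 2 µM, with log2 differences of -0.12 and -0.06 (adjusted p = 0.0912 and 0.387). Without vehicle replicate 1, the lowest of the 3, the difference for AU2-94 1 µM was -0.18 with an adjusted p of 0.0129.

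SPDEF, an ETS factor of secretory epithelium, was lower at 72 h under both selective CDK4 inhibitors. Vehicle held 2893, 2904 and 2969 normalised counts at 72 h. AU2-94 held 2664, 2618 and 2689 at 1 µM and 2760, 2510 and 2604 at 2 µM, and atirmociclib held 2461, 2420 and 2416 at 1 µM and 2547, 2401 and 2626 at 2 µM. No library of these 4 groups overlapped with vehicle. SPDEF fell by 0.14, 0.16, 0.26 and 0.21 on the log2 scale (SE 0.0449, adjusted p = 0.0252, 0.0136, 0.000119 and 0.000948). Ribociclib, at 3018, 2944 and 3004, overlapped with vehicle with a log2 difference of 0.03 (95% interval -0.06 to 0.13). The call for AU2-94 1 µM was lost with quantile normalisation (-0.08, adjusted p = 0.16), with equal totals (-0.10, adjusted p = 0.0975) and without AU2-94 replicate 1 or 2 or vehicle replicate 2 or 3 (-0.14 to -0.13, adjusted p = 0.0505 to 0.0792). That for AU2-94 2 µM was lost with quantile normalisation (-0.12, adjusted p = 0.0512), in a fit of the 2 groups alone (adjusted p = 0.053) and without AU2-94 replicate 2 (-0.12, adjusted p = 0.0767). At 24 h vehicle held 2722, 2932 and 2876, and only ribociclib, at 3242, 3108 and 3182, was called, with a difference of 0.16 (SE 0.0532, adjusted p = 0.027). This call was lost with quantile normalisation (0.14, adjusted p = 0.058), with equal totals (0.10, adjusted p = 0.147) and without ribociclib replicate 1 or 3 or vehicle replicate 1 (0.13 to 0.16, adjusted p = 0.065 to 0.118). The other 4 groups gave log2 differences between -0.10 and 0.09 at 24 h. That of atirmociclib 2 µM was -0.15 without its replicate 1 (adjusted p = 0.049) and -0.18 with equal totals (adjusted p = 0.0114).

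EHF, the second ETS factor, showed the narrowest range of the 6 expressed factors and was not called in any of its 28 comparisons. Its 36 libraries lay between 11587 and 13892 normalised counts, and the group means between 12181 for ribociclib at 24 h and 13224 for atirmociclib 1 µM at 24 h. Against vehicle its log2 differences ran from -0.03 to 0.09 with SE of 0.0449 at 24 h and 0.0468 at 72 h, and the 95% intervals reached from -0.12 to 0.19. At an unadjusted p under 0.05, limma gave 2 of 28 comparisons, both between compounds. The sign of EHF depended on the scaling at 24 h: quantile normalisation turned 0.02, 0.04 and 0.07 for AU2-94 at 1 and 2 µM and atirmociclib at 2 µM into -0.16, -0.15 and -0.16, with adjusted p of 0.00485, 0.00511 and 0.00382, 0.09 for atirmociclib at 1 µM became -0.098, and ribociclib, at -0.03, became -0.25 (adjusted p = 7.52e-05). For AU2-94 2 µM at 72 h the same normalisation gave 0.14 (adjusted p = 0.0424) in place of 0.09.

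NR3C1, the glucocorticoid receptor, was close to the detection floor of 3 normalised counts. At 24 h its libraries held 0 to 6.85 normalised counts, too few for a test. At 72 h vehicle held 10.2, 6.89 and 19.8, AU2-94 held 1.70, 3.75 and 4.19 at 1 µM and 6.07, 3.66 and 4.16 at 2 µM, and atirmociclib held 3.38, 5.96 and 3.92 at 1 µM and 7.56, 2.70 and 3.57 at 2 µM. Ribociclib held 3.02, 3.85 and 21.3, the last of which was the highest value of all. Inclusion in the test at 72 h rested on 3 libraries of at least 10 normalised counts, 2 of vehicle and 1 of ribociclib. This selection tilts the differences of AU2-94 and atirmociclib from vehicle towards lower values, so the values below cannot show a fall. Log2 differences ran from -1.60 to -0.69 (SE 0.61), and none was called. The lowest adjusted p was 0.0528, for AU2-94 1 µM, and it was 0.0461 without the mean-variance trend, 0.0231 with quantile normalisation and 0.046 without vehicle replicate 2. The 2 AU2-94 groups and atirmociclib 1 µM did not overlap with vehicle, and those of atirmociclib 2 µM and ribociclib did.

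The compounds were then compared with each other at matched dose and time, in 8 contrasts with p-values adjusted over all genes of each contrast. AU2-94 and atirmociclib are named by the study as selective for CDK4 and ribociclib as acting on CDK4 and CDK6. In the study's kinase assays AU2-94 was the more selective of the first pair, while atirmociclib inhibited CDK6 and further CDK family members more strongly. The part of these other targets in the differences below was not tested, and no structural change between the compounds is described here. Of 52 tests on the 7 factors, 17 were called. At 24 h, FOXA1 was higher under atirmociclib than under AU2-94, by 0.19 at 1 µM (95% interval 0.09 to 0.28, adjusted p = 0.0199) and 0.21 at 2 µM (0.11 to 0.30, adjusted p = 0.00648). It was also higher than under ribociclib, by 0.21 (0.11 to 0.30, adjusted p = 0.00978). GRHL2 and SPDEF were lower under atirmociclib than under AU2-94 at 2 µM, with differences of -0.16 (-0.26 to -0.06, adjusted p = 0.0437) and -0.19 (-0.30 to -0.08, adjusted p = 0.0329). Against ribociclib the same genes differed by -0.23 (-0.33 to -0.13, adjusted p = 0.00838) and -0.27 (-0.38 to -0.15, adjusted p = 0.0062). With the replicate block the adjusted p for GRHL2 between atirmociclib and AU2-94 at 2 µM was 0.059. At 24 h, 1 of 6 factors was called between atirmociclib and AU2-94 at 1 µM, where 4.64% of all genes were, 3 of 6 at 2 µM, where 9.44% were, and 3 of 6 between atirmociclib and ribociclib, where 4.64% were.

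Ribociclib and AU2-94 at 2 µM and 24 h were not distinguished for any of the 6 factors tested, nor at an unadjusted p under 0.05. The differences ran from -0.07 for EHF (95% interval -0.16 to 0.03) to 0.08 for SPDEF (-0.03 to 0.19), and 0.0372% of all genes, 6 of 16137, were called in this contrast. For GATA2 and HOXB13, whose 24 h rise was shared, atirmociclib and AU2-94 differed by 0.00 (-0.09 to 0.10) and 0.09 (0.00 to 0.17) at 1 µM and by 0.00 (-0.09 to 0.10) and -0.02 (-0.10 to 0.07) at 2 µM. None of these was called.

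At 72 h the order of the compounds was different. GRHL2 was higher than under AU2-94 in all 3 comparisons, by 0.21 for atirmociclib at 1 µM (95% interval 0.10 to 0.32, adjusted p = 0.015), 0.24 for atirmociclib at 2 µM (0.14 to 0.35, adjusted p = 0.00228) and 0.28 for ribociclib (0.17 to 0.39, adjusted p = 0.00593). Atirmociclib and ribociclib did not differ detectably for GRHL2 at 72 h (-0.03, -0.14 to 0.07). HOXB13 was higher under atirmociclib than under AU2-94, by 0.14 at 1 µM (0.07 to 0.21, adjusted p = 0.0159) and 0.19 at 2 µM (0.12 to 0.26, adjusted p = 0.00059), and higher than under ribociclib by 0.12 (0.05 to 0.19, adjusted p = 0.0295). GATA2 went the other way, with atirmociclib 0.18 below AU2-94 on the log2 scale at 2 µM. Its interval was -0.28 to -0.08 (adjusted p = 0.0141), and without atirmociclib replicate 3 the adjusted p was 0.0514. At 1 µM the difference for GATA2 was -0.16 (-0.26 to -0.06, adjusted p = 0.055). FOXA1 was 0.23 higher under atirmociclib than under ribociclib (0.15 to 0.32, adjusted p = 0.000913). SPDEF was lower under atirmociclib than under ribociclib by -0.24 (-0.34 to -0.15, adjusted p = 0.00147) and higher under ribociclib than under AU2-94 by 0.19 (0.09 to 0.28, adjusted p = 0.0264). At 72 h, 2 of 7 factors were called between atirmociclib and AU2-94 at 1 µM against 8.24% of all genes, 3 of 7 at 2 µM against 19.8%, 2 of 7 between ribociclib and AU2-94 against 3.34%, and 3 of 7 between atirmociclib and ribociclib against 9.18%. Equal totals shifted the median of all genes by -0.1045 in the contrast of atirmociclib with AU2-94 at 2 µM and 72 h. Relative to that scaling the GRHL2 and HOXB13 differences in the same contrast were 0.14 and 0.08 and were not called (adjusted p = 0.0637 and 0.0781), and with quantile normalisation they were 0.14 and 0.05 (adjusted p = 0.0616 and 0.324). At 1 µM the HOXB13 difference was 0.06 under both scalings (adjusted p = 0.292 with quantile normalisation and 0.274 with equal totals), and that of GRHL2 was 0.15 and 0.14 (adjusted p = 0.08 and 0.12). The HOXB13 difference between atirmociclib and ribociclib was 0.05 and 0.06 (adjusted p = 0.409 and 0.303), and the SPDEF difference between ribociclib and AU2-94 was 0.14 and 0.15 (adjusted p = 0.0852 and 0.0915).

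**Figure D4:**
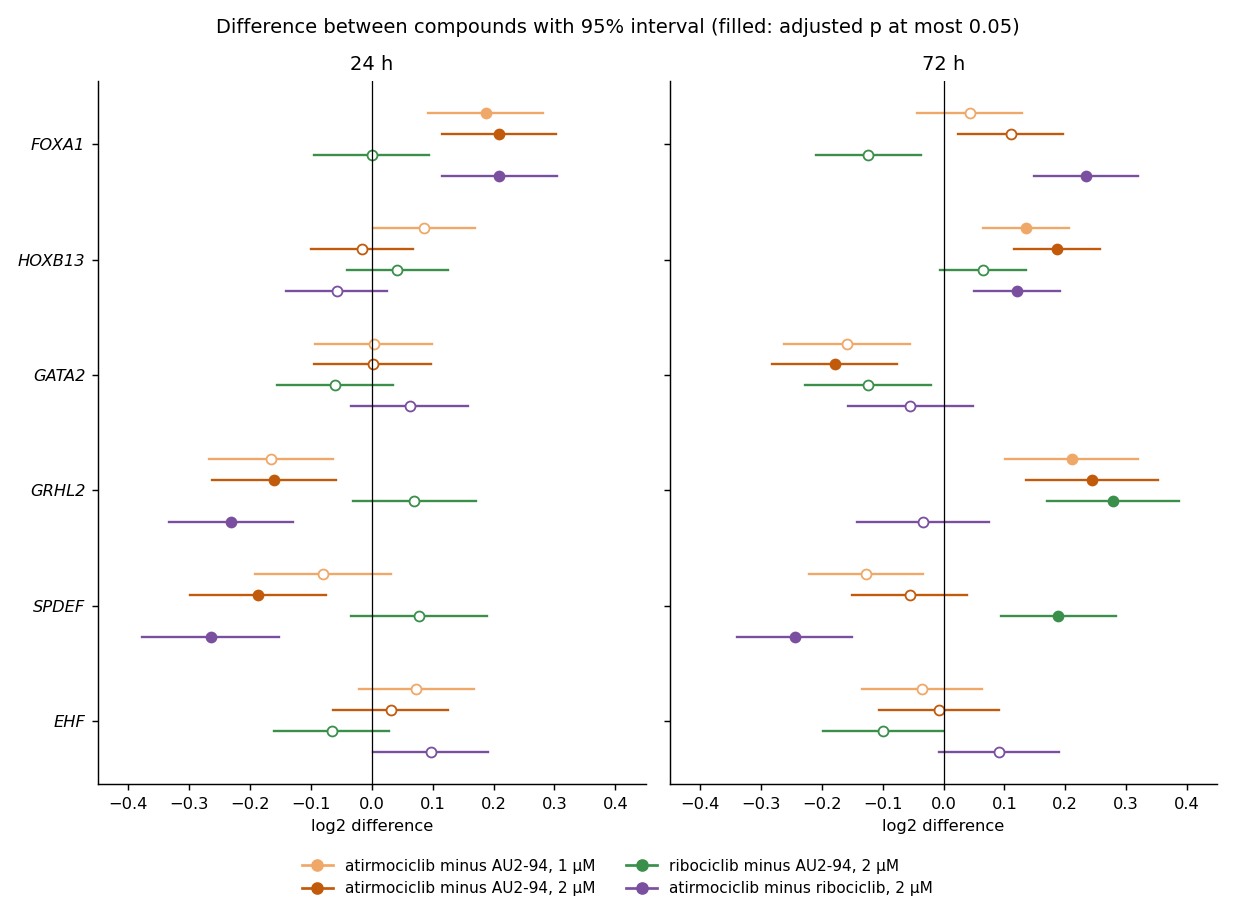
Log2 difference between compounds at the same dose and time for the 6 expressed factors, with the 95% interval from limma; filled points were called. At 24 h the GRHL2 and SPDEF points for atirmociclib lie to the left of 0, whereas at 72 h GRHL2 lies to the right of 0 for atirmociclib and ribociclib against AU2-94, at 0.21 to 0.28.

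Several of these calls were lost when 1 library was left out, most of them for more than 1 choice of library. The FOXA1 call between atirmociclib and AU2-94 at 1 µM and 24 h was lost without AU2-94 replicate 1 or atirmociclib replicate 2 or 3 (adjusted p = 0.0528 to 0.118), and that between atirmociclib and ribociclib at 24 h without ribociclib replicate 1 or 2 (adjusted p = 0.0511 and 0.0548). The GRHL2 call at 2 µM and 24 h was lost without replicate 1 or 2 of either compound (adjusted p = 0.0996 to 0.149), and the SPDEF call there without replicate 2 or 3 of either (adjusted p = 0.0523 to 0.167). At 72 h and 1 µM, GRHL2 was lost without AU2-94 replicate 3 or atirmociclib replicate 2 (adjusted p = 0.0587 and 0.0607), and HOXB13 without AU2-94 replicate 2 or atirmociclib replicate 1 or 3 (adjusted p = 0.0548 to 0.0666). SPDEF between ribociclib and AU2-94 at 72 h was lost without any library but AU2-94 replicate 1 (adjusted p = 0.0577 to 0.129). HOXB13 between atirmociclib and ribociclib at 72 h was lost without atirmociclib replicate 2 or 3 or ribociclib replicate 1 or 3 (adjusted p = 0.052 to 0.134). Besides these and GATA2 at 2 µM and 72 h, the calls between compounds were kept when 1 library was left out.

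Raising the dose from 1 to 2 µM changed none of the 7 factors in the limma test. Of 26 tests over AU2-94 and atirmociclib at both time points, 0 were called and 1 had an unadjusted p under 0.05, SPDEF under atirmociclib at 24 h (-0.12, 95% interval -0.23 to -0.0034, adjusted p = 0.55). For the 6 expressed factors the dose differences otherwise lay between -0.07 and 0.09 on the log2 scale. Of all genes, 0.409% were called between the doses of AU2-94 at 24 h, 0% at 72 h, where 732 of 16341 genes had an unadjusted p under 0.05, and for atirmociclib 0.0124% at 24 h and 2.19% at 72 h.

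The time points were compared last, in a fit of all 36 libraries. In vehicle cells, GATA2 and HOXB13 were both higher at 72 h than at 24 h, by 0.17 each (SE 0.047 and 0.0347, adjusted p = 0.0236 and 0.00218), while 7.5% of all 16850 genes were called in either direction. FOXA1 was 0.13 higher (adjusted p = 0.0692). Seeding density differed between the time points, so time and density cannot be told apart in this contrast. The GATA2 call was lost without vehicle replicate 1 or 2 at 24 h or replicate 2 or 3 at 72 h (adjusted p = 0.071 to 0.101), and FOXA1 was called without replicate 2 at 24 h or replicate 1 at 72 h (adjusted p = 0.0497 and 0.0421).

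The difference from vehicle, or effect, changed between the time points for 4 of the factors. In every called case it was lower at 72 h. Seeding density differed here too, so time and density cannot be told apart. The HOXB13 mean in vehicle was 7164 at 24 h and 8035 at 72 h. It was 8770 and 8820 under ribociclib, and 8530 and 8426 under AU2-94 2 µM. The GRHL2 mean was 3927 and 4031 in vehicle, and 4935 and 3709 under AU2-94 1 µM. For GRHL2 the effect of AU2-94 fell by 0.45 at 1 µM (SE 0.0699, adjusted p = 2.15e-05) and 0.32 at 2 µM (adjusted p = 0.00133) on the log2 scale. For GATA2 the effect of atirmociclib fell by 0.29 at 1 µM (SE 0.0665, adjusted p = 0.00145) and 0.30 at 2 µM (adjusted p = 0.00123), and that of ribociclib by 0.18 (adjusted p = 0.0487, and 0.0572 with the replicate block). The change of the GRHL2 effect was not called for atirmociclib (-0.07 and 0.09) and that of the GATA2 effect was not called for AU2-94 (-0.13 and -0.12). Whether the change of effect differs between compounds was not tested. For SPDEF the effect fell by 0.23 under AU2-94 1 µM (SE 0.0666, adjusted p = 0.0127), 0.24 under AU2-94 2 µM (adjusted p = 0.0105) and 0.28 under atirmociclib 1 µM (adjusted p = 0.00279). For HOXB13 it fell by 0.18 under AU2-94 2 µM (SE 0.0491, adjusted p = 0.00821) and 0.16 under ribociclib (adjusted p = 0.0203). The HOXB13 values were -0.10 and -0.12 with quantile normalisation (adjusted p = 0.143 and 0.067) and -0.12 and -0.11 with equal totals (adjusted p = 0.0885 and 0.1), and so were not called. The ribociclib value for GATA2 was -0.10 and -0.14 under these scalings (adjusted p = 0.312 and 0.151), and with equal totals the SPDEF values for AU2-94 were -0.15 and -0.17 (adjusted p = 0.0964 and 0.0661). FOXA1, EHF and NR3C1 had no called change of effect, with 1 of their 15 tests at an unadjusted p under 0.05. The number of the 7 factors called was 2 for AU2-94 1 µM, 3 for AU2-94 2 µM, 2 for atirmociclib 1 µM, 1 for atirmociclib 2 µM and 2 for ribociclib, against 21.6%, 18.5%, 21.9%, 21.6% and 20.2% of all genes. The ribociclib call for GATA2 was lost without any of 9 of its 12 libraries (adjusted p = 0.0545 to 0.131). That for HOXB13 was lost without ribociclib replicate 1 or vehicle replicate 2 at 72 h (adjusted p = 0.0598 and 0.0729).

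**Figure D5:**
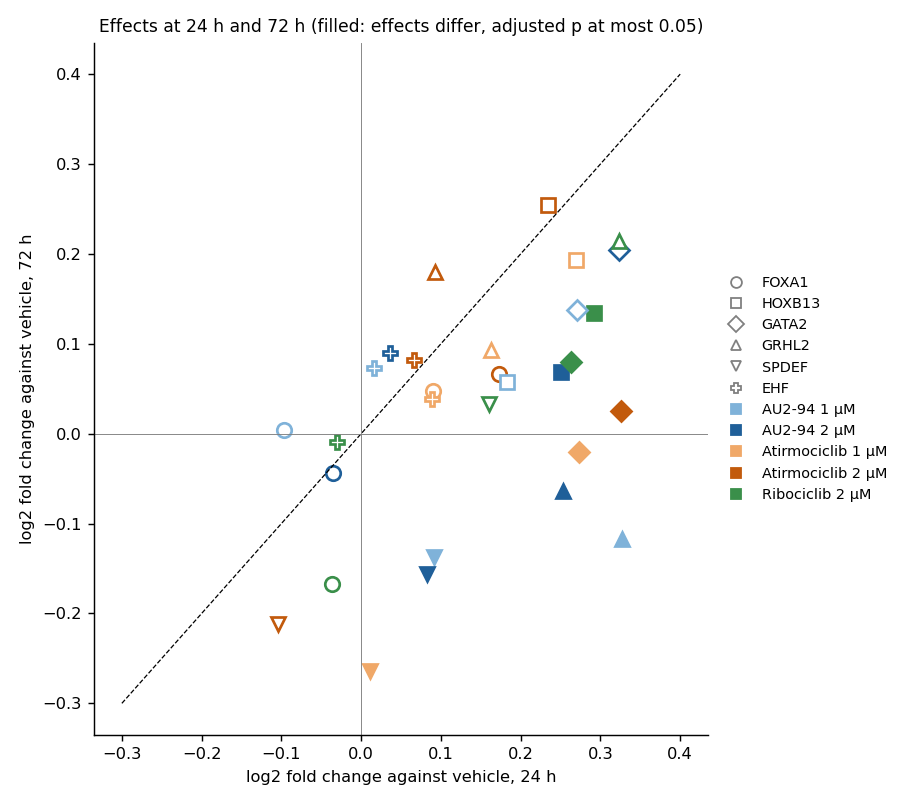
Log2 fold change against vehicle at 24 h (horizontal) and at 72 h (vertical) for the 6 expressed factors (symbols) under 5 treatments (colours); the dashed line marks equal effects and filled symbols mark a called change of effect. All 10 filled symbols lie below the line, with GRHL2 under AU2-94 1 µM the farthest, at a change of -0.45; the FOXA1 value of 0.17 for atirmociclib 2 µM at 24 h turned to -0.017 after quantile normalisation.

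Genes that work with these factors were grouped in lists, each given by its counts. They are to be read against the shares of all genes called in a comparison with vehicle, which were 14.3% to 18.6% higher and 13.5% to 16.2% lower at 24 h, and 14.2% to 20.9% higher and 15.3% to 19.8% lower at 72 h. Of the lists below, several counts lie near these shares, those of the coregulators at 24 h among them. Of 14 androgen response genes, 12 to 13 were higher in each treatment at 24 h and 12 to 14 at 72 h, with 0 lower. The list had a median log2 fold change of 0.47 to 0.60 after 24 h, and of 0.85 to 1.09 after 72 h, where the median of all genes was -0.01 to 0.01. TMPRSS2, a membrane protease driven by androgen, rose by 0.92 to 2.12 over the 10 comparisons, and NDRG1, a stress-responsive gene, by 1.58 to 2.38. KLK2, a prostate kallikrein, rose by 0.48 to 1.40 and TRPM8, a cold-sensing ion channel, by 0.91 to 2.08.

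Of 10 chaperones that fold steroid receptors, 2 to 3 were called higher and 3 to 5 lower after 24 h; after 72 h the counts were 0 to 1 and 6 to 8, with a median of -0.31 to -0.15 at 72 h. HSP90AA1, the inducible HSP90, and PTGES3, its p23 cochaperone, were lower in all 10 comparisons, by -0.44 to -0.15 and -0.65 to -0.19. STIP1, which joins HSP70 to HSP90, was lower in 9 of 10 and HSPA8, the constitutive HSP70, in 7 of 10. Of 20 coregulators of nuclear receptors, 2 to 4 were higher and 3 to 5 lower at 24 h, and 3 to 10 were higher and 1 to 2 lower at 72 h. PIAS2, a SUMO ligase that binds steroid receptors, rose in all 10 comparisons, by 0.43 to 0.85, and NCOA1, a coactivator, was lower in all 10, by -0.35 to -0.24. NCOA4, a coactivator and ferritin receptor, was higher in 7, of which 5 were at 24 h, and KMT2C, a histone methyltransferase of enhancers, in the 5 at 72 h.

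For the 10 epithelial genes linked to GRHL2, 4 were higher in every treatment at 24 h and 3 to 5 at 72 h, with 0 to 2 lower. The median log2 fold change of this list was -0.10 to -0.05 at 24 h, where that of all genes was -0.003 to 0.005. At 72 h the list median was -0.03 to 0.18. CDH1, or E-cadherin, rose in all 10 comparisons by 0.14 to 0.51, CLDN4, a tight junction claudin, by 0.19 to 0.53, and ESRP2, an epithelial splicing factor, by 0.14 to 0.58, including the AU2-94 groups at 72 h in which GRHL2 was not higher. OVOL2 was lower in the 5 comparisons at 24 h, by -0.61 to -0.43. Of 5 repressors of the epithelial state, TWIST1 rose in all 10 comparisons by 0.86 to 1.57, whereas ZEB2 was not tested, and ZEB1 (at most 17.9 normalised counts) and SNAI2 were not called. SNAI1 was called lower in 1.

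Of 12 glucocorticoid response genes, 11 were tested although NR3C1 was near the floor. Of these, 4 to 5 were higher and 1 to 2 lower at 24 h, and 3 to 7 were higher and 1 to 3 lower at 72 h. KLF9 and ZBTB16, transcription factors that steroid hormones induce, rose in all 10 comparisons by 0.22 to 0.60 and 0.22 to 0.80, SGK1, a kinase, was higher in 5, and MT2A, a metallothionein, was lower in all 10, by -1.06 to -0.24. Several genes of this list also respond to androgen, and FKBP5 stands in 3 of the lists. Of 16 other luminal transcription factors, 14 were tested, with 2 to 4 higher and 3 to 9 lower at 24 h, and 4 to 5 higher and 2 to 6 lower at 72 h. KLF5, a zinc-finger factor of basal and luminal cells, was lower in 8 of 10 comparisons, with log2 differences of -1.75 to -0.51 over all 10, TFAP2A was lower in 6 and MEIS1, a HOX cofactor, in 6.

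Of the 25 paralogs of the 7 factors analysed here, 12 were tested. The highest means were 471 normalised counts for ELF3, 373 for NR3C2 and 269 for GRHL1. ELF5, an ETS factor whose gene neighbours EHF, rose in all 10 comparisons, by 0.90 to 1.10 at 24 h and 1.21 to 1.59 at 72 h. Its vehicle libraries held 32.6, 23.1 and 33.9 normalised counts at 24 h and 14.1, 28.2 and 16.4 at 72 h, and all treated libraries held 35.2 to 82.2. HOXC13 was lower in the 5 comparisons at 72 h, by -0.69 to -0.43, and GATA6 was lower in 4 of 10. HOXB9 was higher in 3, ELF3 higher in 2 and lower in 1, and HOXB3 and NR3C2, the mineralocorticoid receptor, were each higher in 1. GRHL1, GRHL3, HOXB5, HOXB6 and PGR were not called in any of the 10, with log2 differences of -0.38 to 0.22 for GRHL1, the most abundant of these 5.

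Over the 36 libraries, the genes with the pattern most like each factor were taken by Pearson r on log2 values among 12474 genes with a mean of at least 50 normalised counts. The libraries share treatment groups and vehicle, so these values describe the data set and carry no test. For HOXB13 they were ITPK1, REEP6 and CLDN4 (r = 0.92, 0.92 and 0.91), and for FOXA1 they were NFIX, FAAP20 and DAG1 (r = 0.91, 0.78 and 0.77). For GRHL2 they were ENDOD1, HMGXB3 and STS (r = 0.87, 0.87 and 0.83), and for SPDEF they were CDC42EP3, CREB3L4 and TNFAIP8 (r = 0.84, 0.82 and 0.80). GATA2 had MPI, BHLHE40 and CCDC183 (r = 0.76, 0.73 and 0.72), and EHF, which varied least, had TMEM123, SEPTIN3 and ZNF581 (r = 0.62, 0.62 and 0.61). Between the factors, r was lowest for FOXA1 with SPDEF, at -0.68, but 0.26 after the group means were removed. FOXA1 and EHF had the highest r, 0.52, and 0.61 within groups.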

How the data were processed

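RNA from 36 LNCaP cultures was sequenced by the study after library preparation with the Universal Plus Total RNA-Seq kit. Per the submitters' processing notes, reads were aligned to GRCh38 with STAR 2.6.1d and DESeq2 was used, and the study's methods name the nf-core/rnaseq pipeline. The annotation release, counter and strand setting are not given in the sources used here. The authors deposited 1 table of normalised counts per gene, a signal in which library size has been divided out. Its values are not whole (9.8% to 60.2% of the low values of a library lay within 0.1 of a whole number), so raw counts could not be recovered and no count model was run. Every column belonged to a sample. Library totals reflect the authors' scaling and not depth, which is unknown, so no counting interval was given.

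Values were tested as log2(value + 1), so that changes of low genes are understated, in R 4.3.3 with limma 3.58.1 (lmFit, eBayes with trend). Genes needed at least 10 normalised counts in at least 3 libraries of the fit, and p-values were adjusted by Benjamini-Hochberg within each contrast over all genes tested, with calls at 0.05. Libraries of a time point were fitted together, and all 36 for time. A level of 3 normalised counts was taken as the floor. Positions and exon lengths came from GENCODE 44. The code was tested on simulated data. Alternatives were a pseudocount of 8, no filter, a mean of at least 100, quantile normalisation, equal totals, median-ratio scaling, all libraries in 1 fit, the groups of a contrast alone, no trend, a replicate block, and each library left out in turn. All 7 factors were named, with up to 4 genes per list having the largest mean change among those called in at least 5 of 10 comparisons with vehicle in 1 direction, every tested paralog, the 3 genes most alike in pattern and the nearest or overlapping genes. One gene that this rule names is not reported here. The members and lists were chosen with earlier results of these data known. Luminal markers, other paralogs and counts of 5 or fewer were named after their values were seen.

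The labels give each replicate number under a batch tag. The study names no batch term, so the main fits did not pair libraries of 1 number, and the replicate block was fitted only as an alternative. Same-numbered libraries of different groups deviated from their groups with an average correlation of 0.00179 (-0.0898 to 0.112) over 45 pairs at 24 h and -0.00217 (-0.0797 to 0.0502) at 72 h. The study describes the replicates as biological.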

Additional observations from a re-analysis of the deposited data

Results flagged for a closer look

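In 10 cases the effect of a treatment at 72 h differed from its effect at 24 h by the interaction test in limma, each lower at 72 h (log2 effect at 72 h minus that at 24 h). For GRHL2 the difference was -0.45 under AU2-94 1 µM and -0.32 under AU2-94 2 µM. For GATA2 it was -0.29 under atirmociclib 1 µM, -0.30 under atirmociclib 2 µM and -0.18 under ribociclib. For SPDEF it was -0.23 under AU2-94 1 µM, -0.24 under AU2-94 2 µM and -0.28 under atirmociclib 1 µM. For HOXB13 it was -0.18 under AU2-94 2 µM and -0.16 under ribociclib, both of which were not called with quantile normalisation or equal totals. The 5 treatments share vehicle libraries at both time points, and seeding density changed with time. Groups of 3 libraries were too small for a test of single outlying libraries.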

How the results depend on the processing

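Besides the calls counted below, 1674 values of single genes stayed on their side of the threshold under alternatives other than leaving out a library (some uncalled ones changed sign), 36 gained and 62 lost a call, and 4 reversed; leaving out 1 library at a time, 1226 stayed, 9 gained and 59 lost a call. All 4 reversals came with quantile normalisation at 24 h: FOXA1 under atirmociclib 2 µM (-0.017), and EHF under AU2-94 1 µM (-0.16), AU2-94 2 µM (-0.15) and atirmociclib 2 µM (-0.16). The cause was not tested.

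With the replicate block, the number of factors called lower went from 2 to 1 for atirmociclib against AU2-94 at 2 µM and 24 h, and from 2 to 1 for the ribociclib effect over time; it changed no other call. With all 36 libraries in 1 fit, and with a mean of at least 100, lower calls for atirmociclib against AU2-94 at 1 µM rose from 0 to 1 at both time points; median-ratio scaling gave 1 at 72 h.

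Without the filter, AU2-94 1 µM at 72 h had 0 higher calls, atirmociclib against AU2-94 at 2 µM and 24 h 0 lower, atirmociclib against ribociclib at 72 h 1 higher and the ribociclib effect 1 lower. Without the trend these 4 were 0, 0, 1 and 1, with 2 lower calls for AU2-94 1 µM at 72 h, 0 higher for atirmociclib against AU2-94 at 1 µM and 24 h, 1 higher at 72 h, and 1 higher for ribociclib against AU2-94 at 72 h. With the groups of a contrast alone, there were 0 lower calls for AU2-94 2 µM at 72 h, 1 higher and 0 lower for ribociclib at 72 h, 0 higher and 0 lower for atirmociclib against AU2-94 at 24 h (1 and 2 µM), 1 lower for atirmociclib against ribociclib at 24 h and 1 higher at 72 h, 0 higher for ribociclib against AU2-94 at 72 h, 1 higher for vehicle over time and 0 lower for the ribociclib effect.

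With equal totals and with quantile normalisation, respectively, lower calls at 24 h were 1 and 2 for AU2-94 1 µM and 1 and 1 for atirmociclib 2 µM, and quantile gave 2 for AU2-94 2 µM and 2 for ribociclib. At 72 h, AU2-94 1 µM had 2 and 2 higher calls (0 lower with equal totals), AU2-94 2 µM 2 and 3 higher (0 lower with quantile) and atirmociclib 2 µM 1 and 1 higher. Atirmociclib against AU2-94 at 1 µM and 24 h had 1 lower call with both and 0 higher with quantile. At 72 h it had 0 higher and 2 lower with both at 1 µM and at 2 µM. Ribociclib against AU2-94 at 72 h had 1 higher and 1 lower with both, atirmociclib against ribociclib at 72 h 1 higher with both, vehicle over time 1 higher with both and the ribociclib effect 0 lower with both. The AU2-94 1 µM effect had 1 higher and 1 lower with equal totals and 2 higher with quantile, the AU2-94 2 µM effect 1 lower with equal totals and 1 higher with quantile, and the effects of atirmociclib 2 µM and ribociclib 1 higher with quantile.

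Leaving out 1 library gave 0 to 1 lower calls for atirmociclib 2 µM at 24 h, 0 to 1 higher and 0 to 2 lower for AU2-94 1 µM, 0 to 1 lower for AU2-94 2 µM and 1 to 3 higher for atirmociclib 2 µM at 72 h. It gave 0 to 1 higher and 0 to 1 lower for atirmociclib against AU2-94 at 1 µM and 24 h, 0 to 1 lower at 2 µM and 24 h, 1 to 2 higher and 0 to 1 lower at 1 µM and 72 h, and 0 to 1 lower at 2 µM and 72 h. It gave 0 to 1 higher for atirmociclib against ribociclib at 24 h and 1 to 2 at 72 h, 1 to 2 higher for ribociclib against AU2-94 at 72 h, 1 to 3 higher for vehicle over time and 0 to 2 lower for the ribociclib effect. The sequencing depth behind the normalised counts is unknown, and NR3C1 was too low for a test at 24 h.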

Other observations

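Genes that lie next to the 7 factors did not all move with them. TTC6, which overlaps FOXA1 on the opposite strand, was higher than vehicle in all 10 comparisons, by 0.38 to 1.01 on the log2 scale, while FOXA1 was called higher in 1. ENSG00000289903, a non-coding gene 788 bases from FOXA1, was higher in the 5 comparisons at 72 h, by up to 1.43, and not called at 24 h. PRAC2, 5 bases from HOXB13 on the opposite strand, was higher at 24 h under AU2-94 1 µM (0.65) and ribociclib (0.38), but lower at 72 h under atirmociclib at 1 and 2 µM (-0.97 and -0.92) and ribociclib (-0.69), where HOXB13 was higher. ENSG00000289048, a non-coding gene 137 bases from GRHL2 on the opposite strand, was higher at 24 h under AU2-94 at 1 and 2 µM (0.68 and 0.57) and ribociclib (0.72), and at 72 h under ribociclib (0.43). These are also the groups in which GRHL2 was highest against vehicle at each time point.

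ARHGAP26, the neighbour of NR3C1, was lower in the 5 comparisons at 24 h, by -0.63 to -0.40, and not called at 72 h. PACSIN1, 2573 bases from SPDEF, was higher under AU2-94 at 1 and 2 µM at 24 h (0.23 and 0.24) and at 72 h (0.28 and 0.27). APIP, on the other side of EHF from ELF5, was higher in 4 comparisons at 24 h (0.25 to 0.33) and lower in 2 at 72 h (-0.24 each). ILRUN, the other neighbour of SPDEF, was called in none of the 10.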
